A study of Homo sapiens with 6 samples.

Results

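Genes nested inside introns are genes that lie whole within an intron of another gene, their host. In the exon annotation listed for U-87 MG cells, 47 of 13721 gene names were nested in this way (0.343%, 95% Wilson interval 0.258 to 0.455). A name counted as nested when its whole span, the least start to the greatest end of its listed exons, lay inside 1 intron of another name. An intron was the gap between consecutive exons of a listed isoform. The members were chosen by these listed positions, so the count and the containment itself are a description. The 47 nested names had 47 different hosts and 47 different holding introns, and none of them was also a host.

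U-87 MG is a human glioma line kept in culture, grown here in DMEM with serum, and its RNA was selected for poly(A) tails. The libraries fell into 2 groups: 3 libraries of cells given EPZ015666 at 10 uM for 72 h, which blocks PRMT5, an enzyme that methylates arginines, and 3 libraries of cells given DMSO, the vehicle, at 10 ul per 10 ml of medium for 72 h. The file analysed here is, by its name, an annotation of DI and consensus coding isoforms, and DI is not spelled out. How this choice of isoforms bears on exon lengths and on the share of protein-coding genes was not tested. The file is 1 exon annotation for both groups together, in hg19 coordinates, with no value per library. Levels, depth, replicate spread and the effect of the inhibitor were therefore not analysed here, and nothing below compares EPZ015666 with DMSO. Of 8 glioma and astrocyte markers, 6 had a listed isoform (NES, VIM, CD44, S100B, SOX9 and OLIG2) and GFAP and SOX2 had none. Of 6 markers of microglia and endothelium, CD68 and VWF had a listed isoform. A listed isoform gives no level.

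In a nested pair, the host is transcribed through the whole of the nested gene, and the nested gene carries its own promoter inside what the host removes by splicing. A nested gene can lie on either strand of its host. One known origin is retrotransposition, in which a spliced mRNA is copied back into DNA and leaves a gene without introns. Known pairs include TIMP1 in SYN1, EVI2A, EVI2B and OMG in NF1, and the LRRTM genes in the alpha-catenin genes.

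The stretches of 250 bases before the start of 5 nested genes are shown because each, in the reference annotation, lies inside an intron of its host. They are the known pairs TIMP1 in SYN1 and LRRTM2 in CTNNA1, the latter listed over 7.15% of its reference span. They are also PTX3 in VEPH1 and FOSB in ERCC1, both listed over nearly their whole length, and CSTF2T in PRKG1, a reference-tagged retrogene. They are RefSeq sequences of GRCh38.p14, from chrX:47582186-47582435 (plus strand) for TIMP1, chr5:138875336-138875585 (minus strand) for LRRTM2, chr3:157436600-157436849 (plus strand) for PTX3, chr19:45467746-45467995 (plus strand) for FOSB and chr10:51699596-51699845 (minus strand) for CSTF2T. They read 5′ to 3′ on the strand of the nested gene, and capitals mark, on either strand, TATAAA (the core of the TATA box), CCAAT (the CCAAT box), GGGCGG (the GC box) and TGACGTCA (the cyclic AMP response element).
TIMP1: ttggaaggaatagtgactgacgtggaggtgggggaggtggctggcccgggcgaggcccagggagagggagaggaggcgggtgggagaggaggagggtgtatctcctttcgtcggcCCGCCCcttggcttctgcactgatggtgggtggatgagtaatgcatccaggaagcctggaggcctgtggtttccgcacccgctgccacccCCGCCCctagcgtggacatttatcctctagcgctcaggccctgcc
LRRTM2: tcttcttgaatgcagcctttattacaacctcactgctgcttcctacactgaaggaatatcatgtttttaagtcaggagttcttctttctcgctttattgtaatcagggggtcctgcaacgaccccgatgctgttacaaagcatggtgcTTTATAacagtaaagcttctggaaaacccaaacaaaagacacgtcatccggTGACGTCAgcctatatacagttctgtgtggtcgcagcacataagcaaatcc
PTX3: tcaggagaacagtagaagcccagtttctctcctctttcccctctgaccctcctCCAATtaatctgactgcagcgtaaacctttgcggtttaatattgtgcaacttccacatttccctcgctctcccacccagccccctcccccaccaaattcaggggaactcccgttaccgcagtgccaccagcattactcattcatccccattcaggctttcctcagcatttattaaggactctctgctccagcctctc
FOSB: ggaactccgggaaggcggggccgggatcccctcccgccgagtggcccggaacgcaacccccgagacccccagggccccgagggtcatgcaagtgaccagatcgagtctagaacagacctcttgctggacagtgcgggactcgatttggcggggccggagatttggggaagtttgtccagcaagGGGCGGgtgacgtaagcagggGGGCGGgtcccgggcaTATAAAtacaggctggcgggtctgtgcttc
CSTF2T: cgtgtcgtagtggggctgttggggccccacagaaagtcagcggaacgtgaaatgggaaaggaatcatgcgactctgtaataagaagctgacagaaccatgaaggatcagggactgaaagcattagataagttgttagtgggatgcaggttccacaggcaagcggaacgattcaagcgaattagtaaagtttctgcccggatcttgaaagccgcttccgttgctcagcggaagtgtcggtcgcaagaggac
A RefSeq promoter, 250 bases before to 50 after the start, was found for 33 of the 47 nested names. Of the 31 with a matched host, 27 promoters (87.1%) lay inside an intron of that host in the reference. Each motif was searched on both strands of the 300 bases, and no motif holds another. TATAAA was in 8 of 33 nested promoters, against 11.5% of 35116 promoters. CCAAT was in 13 of 33, against 34.6%, GGGCGG in 19 of 33, against 45%, and TGACGTCA in 2 of 33, those of LRRTM2 and CGB2, against 1.85%. The median GC content was 60% in nested promoters and 58.7% in all promoters. These are letter matches and give no binding.

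Nested genes lay mostly on the strand opposite to the host, in 40 of 47 pairs (85.1%, 72.3 to 92.6). Among pairs in which a name lay inside the span of another but not inside 1 intron, 134 of 211 were on opposite strands (63.5%, 56.8 to 69.7). Names that lay inside 1 exon of another name, 2 of them also nested through another isoform, were on opposite strands in 98 of 131 pairs (74.8%, 66.7 to 81.5), and this interval overlapped that of the nested pairs. All of these 131 pairs except those 2 were also counted among the 211, so the 2 comparison sets are not separate. No test was run, since names are not replicates of a condition, and the intervals cover counting error only. The 7 pairs on the same strand were OVCA2 in DPH1, FAM89B in SSSCA1, EGLN2 in RAB4B-EGLN2, CORT in APITD1, TMPPE in GLB1, AC004951.6 in RP5-1165K10.2 and CCL3L1 in TBC1D3H. EGLN2, a prolyl hydroxylase of the hypoxia factor, sits in a host whose name is that of a read-through transcript of RAB4B and EGLN2 itself. CCL3L1, a chemokine gene, and TBC1D3H belong to families of near-identical copies, so that reads of either could be placed at another copy.

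The known pairs that were found as nested were 4 of 18 in a list of published pairs. TIMP1, an inhibitor of metalloproteinases, was listed at chrX:47441691-47446188 (hg19, plus strand) with a span of 4498 bases and 5 introns. It lay in intron 4 of 11 of SYN1, the gene of the synaptic vesicle protein synapsin I, which is on the minus strand, and that intron was 27476 bases long. EVI2A was listed as 1 exon of 255 bases at chr17:29648513-29648767 (minus strand), inside intron 39 of 59 of NF1, the gene of the Ras regulator neurofibromin, on the plus strand. LRRTM2, a synaptic adhesion protein, was listed as 1 exon of 461 bases at chr5:138210597-138211057 (minus strand), inside intron 7 of 17 of CTNNA1, the gene of alpha-catenin, on the plus strand. EID1, an inhibitor of differentiation, was listed as 1 exon of 179 bases at chr15:49170291-49170469 (plus strand), inside intron 3 of 10 of SHC4, an adaptor protein gene, on the minus strand. TIMP3 and SYN3, and likewise TIMP4 and SYN2, were all listed, but their listed spans lay apart. Both pairs are nested in the reference annotation, where SYN3 and SYN2 are longer. The 2 hosts were listed over 0.233% and 16.0% of their reference spans. In the other 12 pairs the nested name or both names had no listed isoform, EVI2B and OMG among them.

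**Figure D1:**
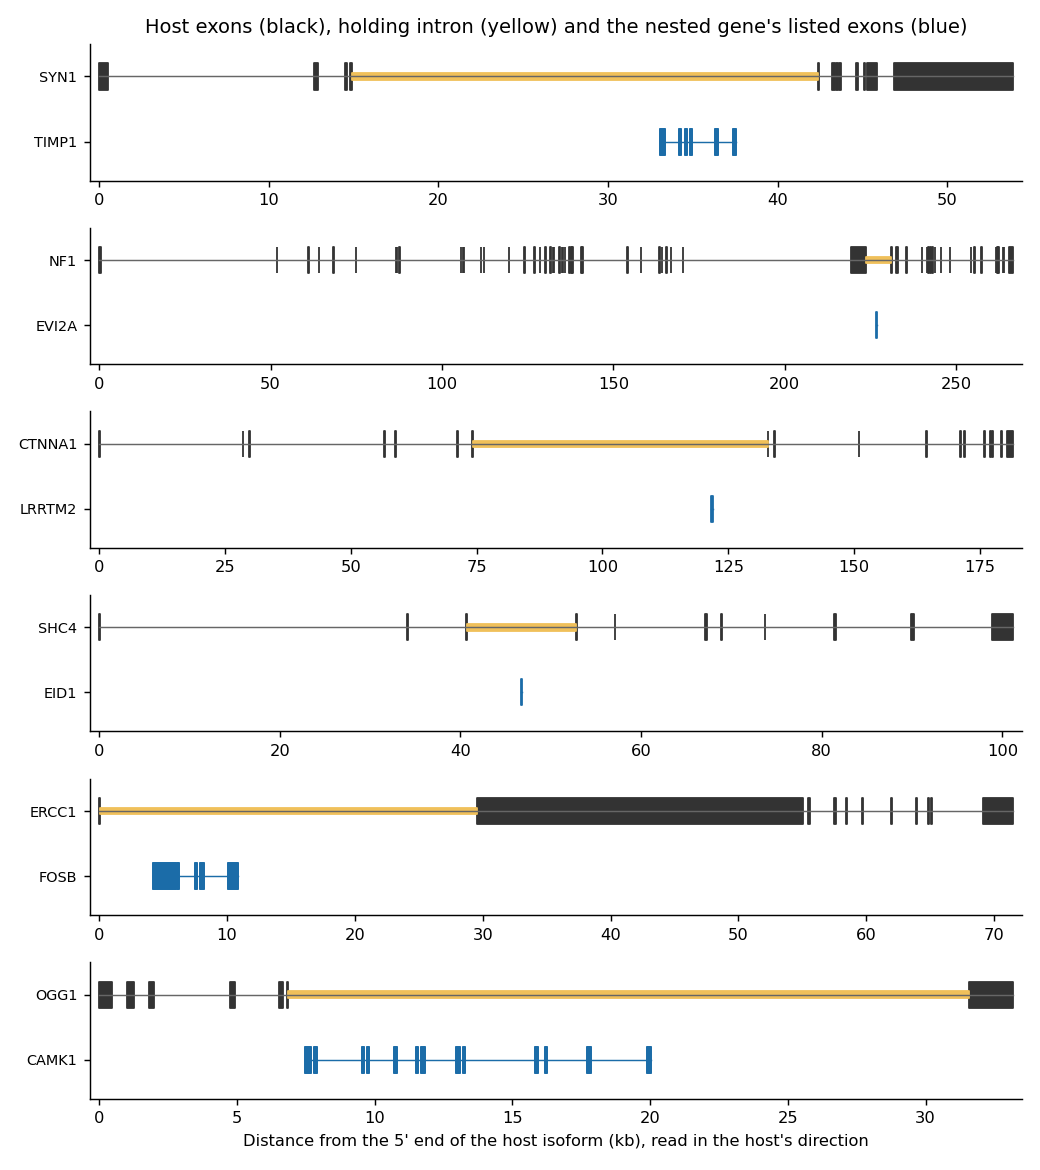
Exons of 6 host isoforms (black), their holding intron (yellow) and the listed exons of the nested gene (blue), by distance in kb from the 5′ end of the host isoform. TIMP1 and CAMK1 are drawn with 5 and 12 introns, while EVI2A, LRRTM2 and EID1 are marks of 255, 461 and 179 bases; NF1 and ERCC1 have listed exons of 4420 and 25464 bases beside the holding intron.

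Holding introns were long. Their median length was 17982 bases (quartiles 9662.5 and 34583.5), against 1471 bases for all 138855 distinct listed introns. For the other introns of the same host isoforms, a median was taken within each host. The median of these medians, which is not pooled over introns, was 1935.5 bases over the 44 hosts that had any. The holding intron was the longest of its isoform in 31 of 47 hosts (66.0%, 51.7 to 77.8). An only intron is the longest by construction, and in isoforms of 2 or more introns the count was 28 of 44 (63.6%, 48.9 to 76.2). A long intron can hold more, so the rule sets part of this difference. The range ran from 548 bases, in TADA3, to 328932 bases, in CMSS1. The 5 longest held FILIP1L in CMSS1, ECM2 in CENPP (231454 bases), CCL3L1 in TBC1D3H (165173 bases), THRB-AS1 in the thyroid hormone receptor gene THRB (157315 bases) and CSTF2T in the protein kinase gene PRKG1 (109097 bases). The 5 shortest held ARPC4, a subunit of the Arp2/3 complex, in TADA3, PPT2 in PRRT1 (564 bases), OVCA2 in DPH1 (729 bases), FAM89B in SSSCA1 (2431 bases) and METTL12 in C11orf48 (2549 bases). ARPC4 and KCTD4 were the exceptions to the host pattern, in holding introns shorter than the median of the other introns of their hosts.

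**Figure D2:**
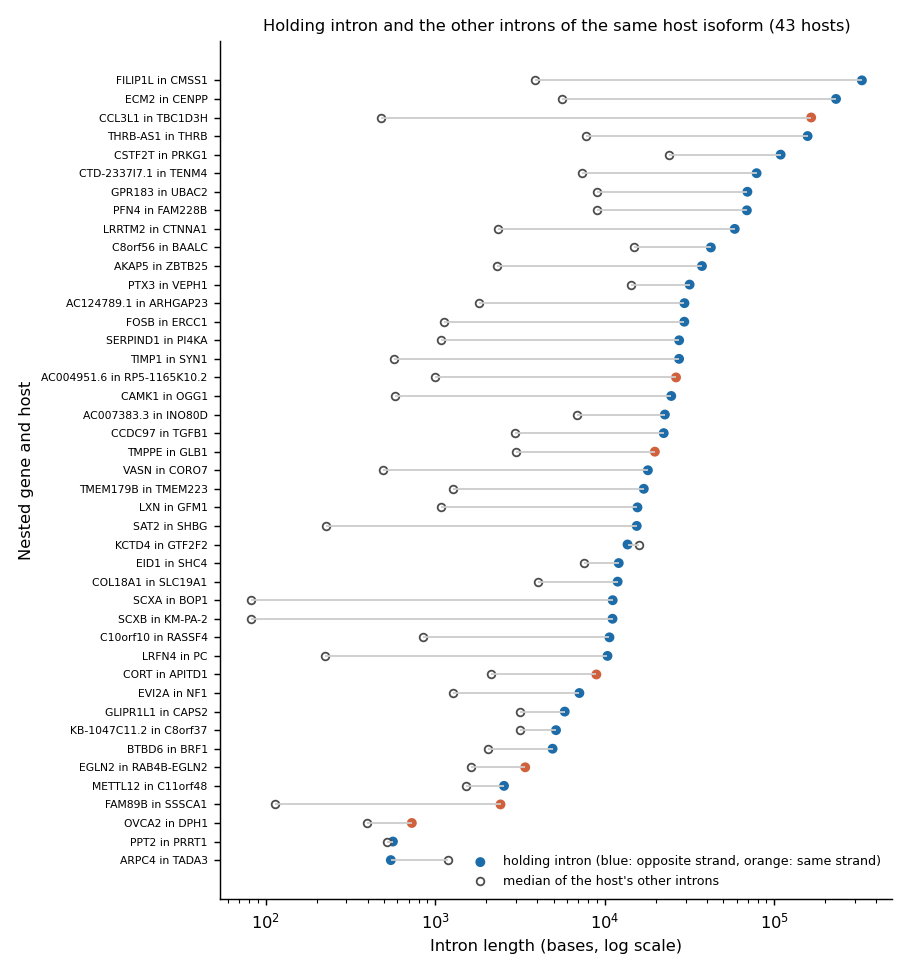
Length of the holding intron (filled; blue for opposite and orange for the same strand) and median length of the other introns of the same host isoform (open), in bases on a log scale, for 43 of the 44 hosts with other introns. The filled point is right of the open one in all rows except those of KCTD4 in GTF2F2 and ARPC4 in TADA3.

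The first intron held the nested gene in 17 of 47 hosts (36.2%, 24.0 to 50.5). First introns made up, on average, 17.7% of the introns of these host isoforms by number and 30.7% of their summed intron length. The interval of the share lay above the share by number and held the share by length. With nested names of protein-coding reference genes only (n = 39), the share was 25.6% (14.6 to 41.1), against 16.8% by number, which its interval held. The last intron was the holding one in 12 of 47, hosts with 1 intron counted under both. Of the intron bases outside the nested span, a median of 50.1% lay on its 5′ side, with quartiles at 16.2% and 76.6%.

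Nested spans were short and most nested names had no intron. The median span was 404 bases (52 to 38001), against 24983 bases for all names. No intron was listed for 31 of 47 nested names (66.0%, 51.7 to 77.8), against 9.18% of all names. This difference followed the spans: of names of 1000 bases or less, 31 of 32 nested names had no intron, against 93.7% of 1231 names of that length. The 15 nested names with longer spans all had an intron, and among 12490 names of that length 0.849% had none. Nested names were 2.60% of the names of 1000 bases or less and 0.120% of the longer ones, which the rule favours because a short span fits more introns.

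**Figure D3:**
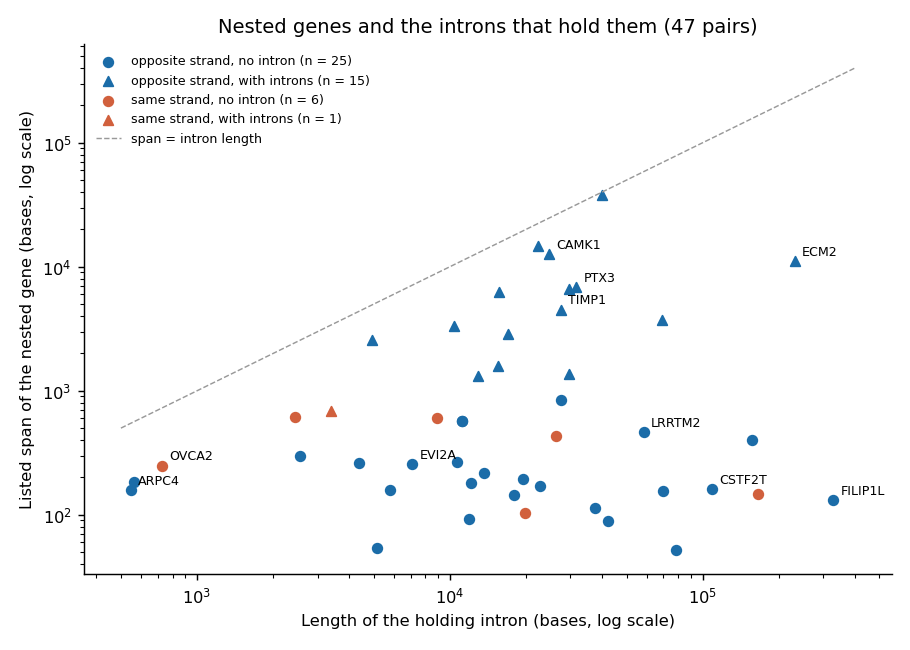
Listed span of each nested gene against the length of its holding intron, both in bases on log scales, by strand (blue opposite, orange same) and by the presence of introns in the nested gene (triangles with, circles without). All 47 points lie below the line of equal lengths, and FILIP1L is the farthest right.

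The 16 nested names with introns had a median listed span of 4101.5 bases, from 687 to 38001, and the 31 without had one of 184 bases, from 52 to 846. CAMK1, a calcium/calmodulin-dependent kinase gene, had 12 introns over 12578 bases and lay in the last of the 6 introns of OGG1, which encodes a DNA glycosylase for oxidised guanine. TIMP1, SAT2 in SHBG and LXN, a carboxypeptidase inhibitor, in GFM1 had 5 introns each. FOSB, a subunit of the AP-1 transcription factor, had 4 introns over 6602 bases and lay in the first intron, of 29491 bases, of the DNA repair gene ERCC1. CCDC97 had 4 introns and filled 65.9% of the last intron of TGFB1, the gene of a growth factor. BTBD6 filled 51.7% of intron 5 of BRF1, CAMK1 filled 50.9% of its intron, and LXN filled 40.2%. BTBD6, CCDC97, FOSB, TMEM179B in TMEM223 and ECM2 had 4 introns each, PFN4 in FAM228B had 3 and AC124789.1 in ARHGAP23 had 2. PTX3, a pentraxin of innate immunity, LRFN4 in the pyruvate carboxylase gene PC, EGLN2 and CGB2 in CTB-60B18.6 had 1 each. CGB2 belongs to a cluster of chorionic gonadotropin copies, and its placement is uncertain. The other nested names filled a smaller part of the intron, with a median over all 47 of 4.81%.

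Most of the intronless entries were pieces of genes that are longer in the reference annotation, GENCODE v29. Of the 47 nested names 41 were matched to a reference gene, 4 of them by a synonym, and all 41 were on the same chromosome and strand there. Protein-coding genes made up 39 of the 41 (95.1%, 83.9 to 98.7), a share near the 97.9% of all 13034 matched names. The listed span was a median of 9.38% of the reference span for nested names, against 94.4% for all 13034 matched names. It was under 25% for 24 of 41 (58.5%, 43.4 to 72.2), against 12% of matched names. Nested names with introns were listed at a median of 95.1% of the reference span (n = 15), and those without at 3.64% (n = 26). All matched names without introns were listed at a median of 2.93% (n = 1051), so the intronless nested names were like other intronless names in this.

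**Figure D4:**
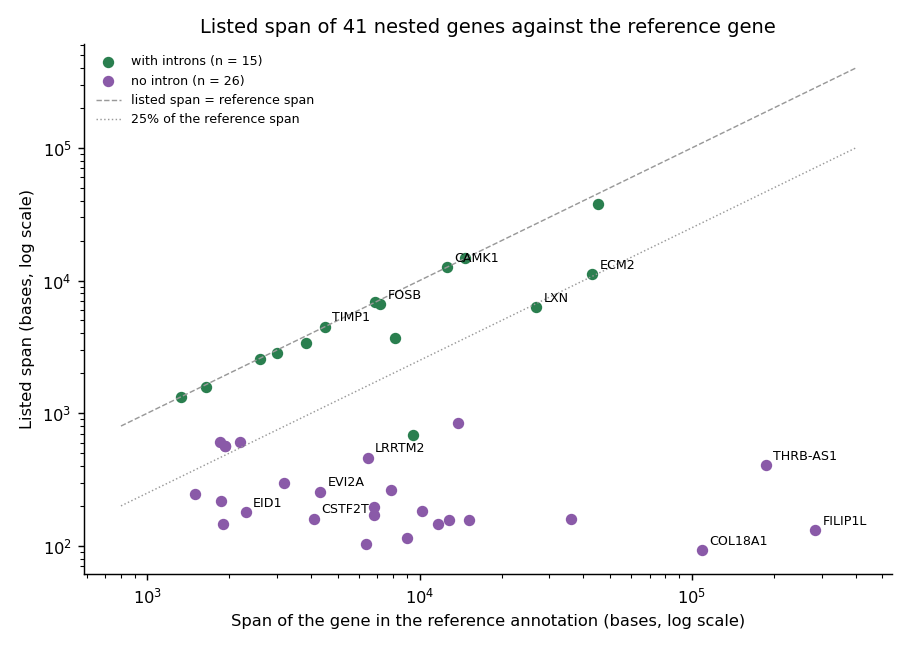
Listed span of the 41 matched nested genes against the span of the reference gene, both in bases on log scales, for names with introns (green) and without (purple); the dashed line marks equal spans and the dotted line 25%. TIMP1, FOSB and CAMK1 lie on or next to the dashed line, and EVI2A, EID1, CSTF2T and FILIP1L lie below the dotted one.

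Several intronless entries had the length of a first exon. A length within 1 base of a first exon of the same reference gene was found for 9 of 26 matched intronless nested names (34.6%, 19.4 to 53.8), against 30.4% of all matched intronless names, a share near that background. AKAP5, which anchors protein kinase A and lay in an intron of ZBTB25, was listed with 114 bases beside a first exon of 115 bases that holds 0 coding bases. VASN was listed with 145 bases beside a first exon of 146 bases without coding bases, while its longest reference coding sequence has 2019 bases. EVI2A and LRRTM2 equalled first exons of 255 and 461 bases, with 0 and 4 coding bases. FILIP1L, CORT, FAM89B, THRB-AS1 and WFDC13, the last in WFDC10B, were 1 base shorter than a first exon. SERPIND1, the gene of heparin cofactor II, and GLIPR1L1 equalled last exons of 846 and 158 bases, and METTL12 was 1 base shorter than an internal exon of 300 bases. The other 14 equalled none, EID1 among them with 179 listed bases of a single reference exon of 2298 bases. The reference tags CSTF2T, BTBD6 and EID1 as retrogenes, 3 of 41 matched nested names, against 0.529% of matched names; CSTF2T is the intronless copy of a cleavage stimulation factor gene.

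The nesting itself was also present in the reference annotation for 24 of the 38 pairs with both names matched (63.2%, 47.3 to 76.6). In 10 pairs the reference spans overlapped without nesting, and in 4 they lay apart. Pairs whose nested name had introns were nested in the reference in 11 of 14 cases, and the others in 13 of 24. COL18A1, a collagen gene with a reference span of 108584 bases, was listed with 93 bases inside the last intron of the folate carrier gene SLC19A1, and the reference genes overlap. FILIP1L in CMSS1, TIMP1 in SYN1, VASN in CORO7, GPR183, an oxysterol receptor gene, in UBAC2, and SERPIND1 in PI4KA were nested in both annotations. The pairs that lay apart in the reference were CCL3L1 with TBC1D3H, CORT with APITD1, PPT2 with PRRT1 and AC007383.3 with INO80D.

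Holding introns matched the reference gene less often than other listed introns. A reference intron of exactly the same length was found in the host for 20 of 43 holding introns (46.5%, 32.5 to 61.1), against 91.4% of 136480 listed introns of matched names. Among introns of 10000 bases or more, it was found for 19 of 32 (59.4%, 42.3 to 74.5), against 85.2%. Among first introns it was found for 7 of 14, against 80.6%, among middle introns for 11 of 20, against 93.6%, and among last introns for 2 of 9, against 86.5%, with the only intron of an isoform counted as first. An equal length was found for the holding introns of TIMP1, LRRTM2, EID1, PTX3, GPR183, SERPIND1 and TMPPE, among others. None was found for those of EVI2A, FOSB, CAMK1, CCDC97, CSTF2T, VASN and FILIP1L, although all 7 pairs were nested in the reference. An equal length was present for 11 of the 24 pairs nested in the reference.

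**Figure D5:**
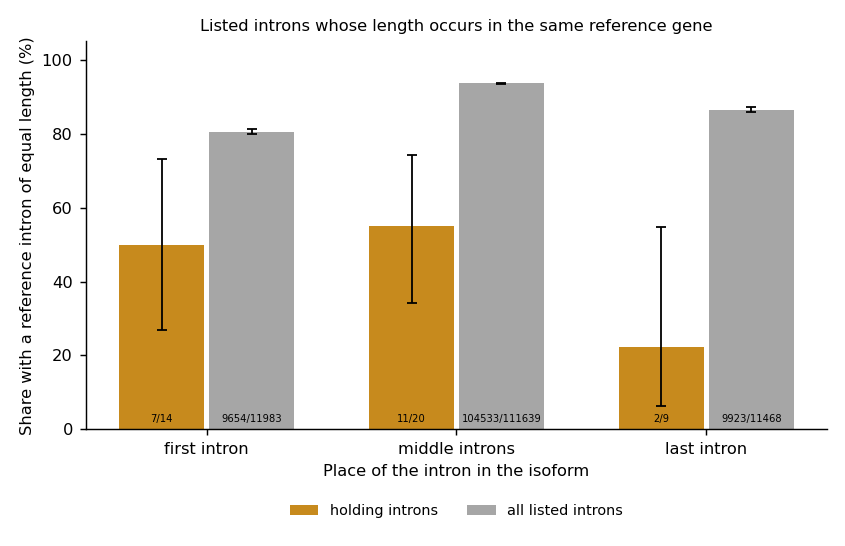
Share of holding introns (left bars) and of all listed introns of matched names in the isoform with most introns (right bars) for which the same reference gene has an intron of equal length, by place in the isoform, with 95% Wilson intervals and counts. The left bars stand at 50%, 55.0% and 22.2%, below the right bars at 80.6%, 93.6% and 86.5%.

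Long host exons lay beside many of these introns. A flanking exon longer than any reference exon of the host was listed beside 11 of 43 holding introns (25.6%, 14.9 to 40.2), against 4.13% of 135090 listed introns. Such an exon flanked 10 of the 23 holding introns without an equal reference intron and 1 of the 20 with one. PRKG1 had a listed exon of 127062 bases before the intron of CSTF2T, and its longest reference exon has 4549 bases. ERCC1 had one of 25464 bases after the intron of FOSB (longest reference exon 2393 bases), and CAPS2 one of 24200 bases after the intron of GLIPR1L1 (1855 bases). GTF2F2 had one of 10383 bases before the intron of KCTD4 and TGFB1 one of 8238 bases after that of CCDC97. In NF1 the exon of 4420 bases before the intron of EVI2A was shorter than the longest reference exon, of 5799 bases. How these exons arose was not tested.

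The reference annotation held 174 nested pairs with both names listed in the file, 149 of them on opposite strands (85.6%, 79.7 to 90.1). Of these, 24 were nested in the file, and 25 nested genes lay inside 1 listed exon of the host. A further 11 crossed an edge of a host exon, 19 crossed an end of the host and 95 had spans apart. Where the pair was nested in the file, the host was listed over a median of 99.3% of its reference span, against 30.7% where the spans lay apart. A host must be listed on both sides of a gene to hold it, so the sorting of pairs sets part of this difference.

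Near the threshold, the closest member was LXN, 28 bases inside the intron edge of GFM1, followed by AC007383.3 (97 bases), PPT2 (100 bases), OVCA2 (108 bases) and ARPC4 (116 bases). The nearest names outside were TRIM28, which crossed an intron edge of MZF1 by 27 bases, GNG3 in HNRNPUL2-BSCL2 (55 bases), CYP2D6 in NDUFA6-AS1 (59 bases), C15orf61 in IQCH-AS1 (76 bases) and AP000525.9 in RABL2B (99 bases). In 7 of the 47 pairs an exon of another isoform of the host overlapped the nested span; those of FAM89B, PPT2, CCDC97, CAMK1, PTX3 and ECM2 were among them. In 5 pairs a final exon of the host lay inside the holding intron.

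The nested genes were also counted in classes set by patterns in the names. A gene whose name lacks the pattern was not counted, such as KB-1047C11.2 among the clone names. By these patterns, the nested genes included 1 of 55 G protein-coupled receptor names (GPR183) and 2 of 64 leucine-rich repeat names (LRRTM2 among them). They also included 1 of 30 names of metalloproteinases and their inhibitors (TIMP1), and 1 of 167 names of non-coding RNAs (THRB-AS1). Clone and locus names gave 5 of 644 (0.776%) and family names of uncharacterised genes 5 of 890 (0.562%), against 0.343% of all names. A pattern for pseudogene names matched AKAP5 and TIMP1, which are coding genes. No nested name was found among 445 zinc finger and THAP genes, 163 ribosomal protein genes, 234 solute carrier genes, 185 ubiquitin ligase and F-box genes, 116 genes of mitochondrial complexes, 69 homeobox and forkhead genes, 25 cadherin genes or 17 histone genes. At the 0.343% of all names, classes of these sizes would hold few nested names or none, so the counts of 0 do not set them apart. Of 42 cancer genes 37 were listed, of which 0 were nested and 1, NF1, was a host. Over all names 0.343% were nested, and 0.377% of names with an intron were hosts. A list of this size would hold few of either or none, so these counts do not set the cancer genes apart. The remaining nested names without introns were C10orf10 in RASSF4, SCXA in BOP1 and SCXB in KM-PA-2, both of 566 bases and matched to the same tendon transcription factor gene SCX, so that their placement is uncertain, C8orf56 in BAALC, KB-1047C11.2 in C8orf37, CTC-349C3.1 in PITX1 and CTD-2337I7.1 in TENM4, the shortest of all with 52 bases.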

How the data were processed

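Poly(A) RNA libraries of U-87 MG cells were made with EPZ015666 (3 libraries) or DMSO (3 libraries), per the labels. Tools listed in the submitters' processing notes, with no role given, were RSEM, DESeq 1.10.1, bedtools 2.20.1, Bowtie 1.0.1 and STAR 2.4.1d, with the builds hg19 and GRCh37. The deposited file used here is an exon annotation; its 2 numeric columns, per the deposited rows, are exon start and end positions (other values, in bases). It holds no counts, so depth is unknown and no test between groups was run.

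Rows were split into isoforms at a change of parent name or a restart of order along the strand (31659 isoforms). Rows with an end before the start (76 of 382567) were dropped, and of 2 overlapping consecutive exons the later was kept. Where several introns held a name, that of the isoform with most introns was taken. Names were matched by symbol or RefSeq synonym to GENCODE 29, a GRCh38 annotation, and compared by lengths and relations within it, never by position. Lengths can differ between the builds. Intervals are 95% Wilson intervals, which treat names as independent. Members, lists and named genes were chosen with earlier results of these data known. Named were the listed published pairs, the 5 longest and shortest holding introns, the 5 names with most introns or filling most of the intron, the 5 nearest either side of an intron edge, up to 4 per class and cancer genes; examples beyond these were chosen after their values were seen. A pair among the 47 is counted but not reported by name here. The search was tested on simulated data. Python 3.11.15, numpy 2.4.6, pandas 2.3.3, scipy 1.17.1 and matplotlib 3.10.9 were used.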

Additional observations from a re-analysis of the deposited data

How the results depend on the processing

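The count of nested names, their strand, their intron content, the length and rank of the holding intron and the share nested in the reference were recomputed under 8 alternatives, and under 3 chosen after seeing the data. All 6 kept their values with the earlier of overlapping exons and with the shortest holding intron. The limits on intron length, names at 1 place only and each intron counted once could not change them, since they removed no member, and they say nothing of stability. With no host exon over the nested span 40 names were left. With protein-coding reference genes 39 were left, and the share in first introns was 25.6%; its interval then held the share of first introns by number. The intervals also held the 17.7% by number of all 47 hosts with the 16 names with introns (31.25%) and the 17 listed over 25% or more of the reference span (29.4%). Without multi-copy and read-through loci 40 names were left, 90% of them on the opposite strand. With nested names that have an intron only, 16 names were left; 93.75% were on the opposite strand, 0% lacked an intron by construction, and 78.6% of pairs were nested in the reference. With names listed over 25% or more of the reference span, 17 were left; 23.5% lacked an intron and 80% of pairs were nested in the reference. No paired analysis was possible because no library has values of its own here. The precision of every share is limited by the 47 members, and the depth behind the listed isoforms is unknown.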

Other observations

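A larger set of names lay inside 1 listed exon of another name rather than inside an intron. There were 131 such names, 98 of them on the strand opposite to the covering gene (74.8%, 95% Wilson interval 66.7 to 81.5), and 46 had no intron. The covering exons had a median length of 7031 bases and reached 960752 bases, and 76 were final, 42 internal and 13 first exons. Of the 111 with a matched covering gene, 99 were longer than any reference exon of that gene. An exon must be longer than the name it covers, so the choice of these exons sets part of this share. The share over all listed exons was not computed. Of the 95 pairs with both names matched, 26 were nested inside an intron in the reference. Examples, chosen after their values were seen, were LRRN3, a leucine-rich repeat gene, inside an internal exon of 453843 bases of IMMP2L, GPER1, an oestrogen receptor gene, inside one of 99129 bases of C7orf50, FGF7, a growth factor gene, inside one of 137047 bases of FAM227B, and IFIT2 and IFIT3, interferon-induced genes, inside one of 83798 bases of LIPA. All 5 of these pairs were nested in an intron in the reference. Of these names 2 were also members of the nested set through another isoform, ECM2 in CENPP and PPT2 in PRRT1.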
